A study of Homo sapiens with 33 samples.

Results

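The 4 human TCF/LEF transcription factor genes, LEF1, TCF7, TCF7L1 and TCF7L2, and CTNNB1, which encodes their co-activator beta-catenin, were followed through RNA sequencing of acute lymphoblastic leukaemia (ALL) cell lines. The members were the rows whose Ensembl identifiers map to these 5 symbols, and all 5 were found among 62446 gene rows in each of 33 libraries. TCF/LEF proteins bind DNA through an HMG box and bend it. Without Wnt signalling they hold co-repressors of the Groucho/TLE family on their targets, and a cytoplasmic destruction complex built on AXIN, APC and the kinase GSK3 marks beta-catenin for degradation. When the pathway is active, beta-catenin escapes the complex, enters the nucleus and displaces the co-repressor. LEF1 and TCF7 (which encodes TCF-1) are the lymphoid members, required for early T-cell development, and LEF1 also acts in pro-B cells.

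The libraries form 11 groups of 3, named by their titles. Nalm6, a B-cell precursor ALL line, has an untreated group, a group given CHIR-99021 at 0.5 µM (a GSK3 inhibitor that activates Wnt signalling) and a group given the glucocorticoid prednisolone at 5 µM. A separate Nalm6 set holds untreated cells and cells given 100 nM of the stronger glucocorticoid dexamethasone. The labels do not say which untreated group was made with the Nalm6 prednisolone libraries, which were tested against the first. In the series list they stand beside the second untreated group. Reads outside genes were 27.9%, 32.7% and 26.3% in the prednisolone libraries. They were 26.7%, 28.3% and 26.4% in the first untreated group and 19.7%, 19.2% and 19.6% in the second. Any part of the library set in the prednisolone results was not tested. Nalm6 cells edited with CRISPR/Cas9 to knock out the co-repressor gene TLE1 (TLE1 knockout) came untreated, with prednisolone at 5 µM and with dexamethasone at 100 nM. CEM, a T-cell ALL line, came untreated, with CHIR-99021 at 2 µM and with prednisolone at 10 µM. Drug exposure was 24 h. Nalm6 and knockout cells were kept in medium with charcoal-stripped serum, a medium low in steroids. The protocol text assigns prednisolone to the parental line and CHIR-99021 to the knockout, which differs from the titles and the series text, and the titles were followed. The labels do not say whether the knockout is 1 clone, and there is no untreated knockout group within the dexamethasone set. Independent experiments are stated only for parental CHIR-99021 and knockout prednisolone. For the other groups p-values measure the spread between libraries, which may be technical.

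Levels are sense-strand counts per 1000000 gene counts (CPM). Library totals ran from 25292579 to 61930057 counts, so a gene at 0 counts could lie at up to 0.0484 to 0.119 CPM (3 counts), an allowance for counting error only. Nalm6 and knockout libraries carried all 8 B-lineage markers above 1 CPM and CEM libraries all 8 T-lineage markers. LCK and BCL11B of the T-lineage list were also above 1 CPM in Nalm6 and the knockout, where the list summed to 24.2 to 49.4 CPM against 1861 to 2038 CPM in CEM. In CEM 4 of the 8 B-lineage markers were above 1 CPM, and that list summed to 59.1 to 96.4 CPM against 1853 to 2632 CPM in Nalm6 and the knockout. TLE1 transcripts remained in the knockout, at 25.4, 24.0 and 24.0 CPM untreated against 30.2, 34.0 and 31.8 CPM in Nalm6, a log2 difference of -0.36 ± 0.06 (SE, edgeR adjusted p = 0.00200). Messenger RNA counts do not measure the protein. A gene-level count also cannot separate isoforms, such as LEF1 and TCF7 forms with and without the beta-catenin binding domain. In bulk RNA, fewer cells that express a gene and less RNA per cell cannot be told apart.

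By group mean in CPM, which takes no account of transcript length, LEF1 was the highest TCF/LEF transcript of every group. In CEM TCF7 came near it, with untreated means of 592 CPM for LEF1 and 513 CPM for TCF7. Under CHIR-99021 the CEM means were 613 and 574 CPM, and in replicate 1 TCF7 (629 CPM) stood above LEF1 (614 CPM). In the untreated Nalm6 libraries LEF1 stood at 509, 534 and 530 CPM. The second untreated Nalm6 set had 473, 515 and 525 CPM. Untreated CEM libraries had 584, 612 and 582 CPM. The ranges of CEM and of both Nalm6 groups did not overlap, yet the lines lay close together: CEM was 1.14-fold above the second Nalm6 set (log2 0.19 ± 0.04, edgeR adjusted p = 0.00119).

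TCF7 separated the lines. Its sense-strand counts were 22003, 25714 and 16856 in untreated CEM (477, 564 and 498 CPM) and 1, 2 and 2 in untreated Nalm6. From the summed counts CEM was 17315-fold higher, with an exact 95% counting interval of 7419 to 53328. Against the second Nalm6 set, whose libraries had 27, 2 and 2 counts, the ratio was 1868 (1316 to 2750), and without the library with 27 counts it was 8640 (3374 to 31713). The fitted log2 difference to that set was 10.81 ± 0.22 (edgeR adjusted p = 6.18e-14).

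TCF7L2, the factor best known from gut epithelium and from type 2 diabetes genetics, was low in all lines. Its group means lay between 3.87 and 7.91 CPM, with 99 to 491 counts per library. TCF7L1, known as a repressor in embryonic stem cells, had 0 sense-strand counts in 28 libraries and 1 or 2 in the other 5, and could be tested in no comparison. CTNNB1 was abundant everywhere, from a group mean of 196 ± 3.43 CPM (SD, n = 3) in CEM under CHIR-99021 to 297 ± 1.25 CPM in Nalm6 under dexamethasone.

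**Figure D1:**
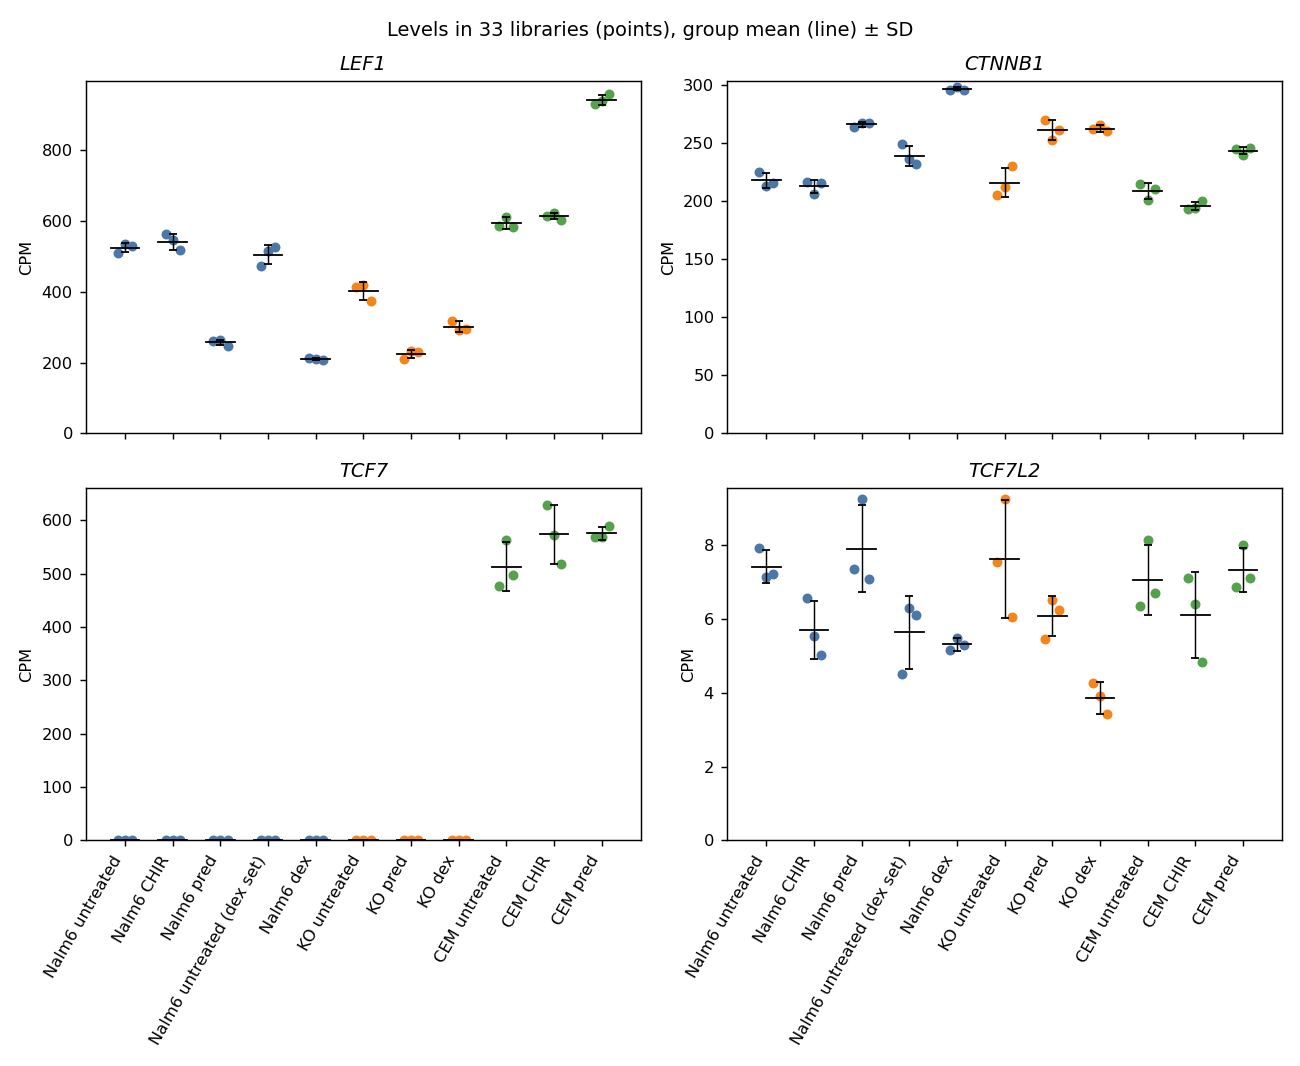
Counts per 1000000 (y axis, linear from 0) of LEF1, CTNNB1, TCF7 and TCF7L2 in each library (points) of the 11 groups (x axis; blue Nalm6, orange TLE1 knockout, green CEM), with the mean and SD of 3 libraries in black. LEF1 is lowest in Nalm6 under dexamethasone (210 CPM) and highest in CEM under prednisolone (940 CPM), while TCF7 is visible above 0 in the CEM groups only.

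Counts per gene grow with transcript length, so levels of different genes were set against each other per kilobase of exon. On that scale LEF1 made up 97.6% to 99.2% of the summed 4 factors in the 8 Nalm6 and knockout groups. TCF7L2 supplied nearly all the remainder there, from 0.831% to 2.39%. In untreated CEM the sum was 68.0% ± 1.36 LEF1 (SD, n = 3) and 31.3% ± 1.31 TCF7. Under CHIR-99021 the LEF1 share was 66.4% ± 2.02 and TCF7 took 31.3% to 35.1%. Under prednisolone the shares were 75.1% ± 0.121 and 24.5% ± 0.153. The prednisolone libraries had 74.9% to 75.2% LEF1 and the untreated ones 66.6% to 69.3%, without overlap. With the longest transcript as the length, LEF1 took 63.6% untreated and 71.2% under prednisolone.

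The factor sum was also set against CTNNB1. Per kilobase, factor transcripts outnumbered CTNNB1 by 5.41 ± 0.294 to 1 in untreated Nalm6, 2.19 ± 0.0802 under prednisolone and 1.60 ± 0.0232 under dexamethasone (SD, n = 3). The second untreated Nalm6 set stood at 4.74 ± 0.426. In the knockout the ratio was 4.21 ± 0.493 untreated, 1.95 ± 0.167 under prednisolone and 2.58 ± 0.141 under dexamethasone. CEM went the other way, with 9.28 ± 0.755 untreated, 10.5 ± 0.591 under CHIR-99021 and 11.4 ± 0.174 under prednisolone. These ratios depend on the gene models and concern RNA, not protein. With the longest transcript as the length they were 3.42 in untreated Nalm6, 1.39 under prednisolone and 1.01 ± 0.0146 under dexamethasone. Factors and CTNNB1 were thus about equal in Nalm6 under dexamethasone on that scale. In CEM they were 6.28 untreated, 7.12 under CHIR-99021 and 7.62 under prednisolone.

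**Figure D2:**
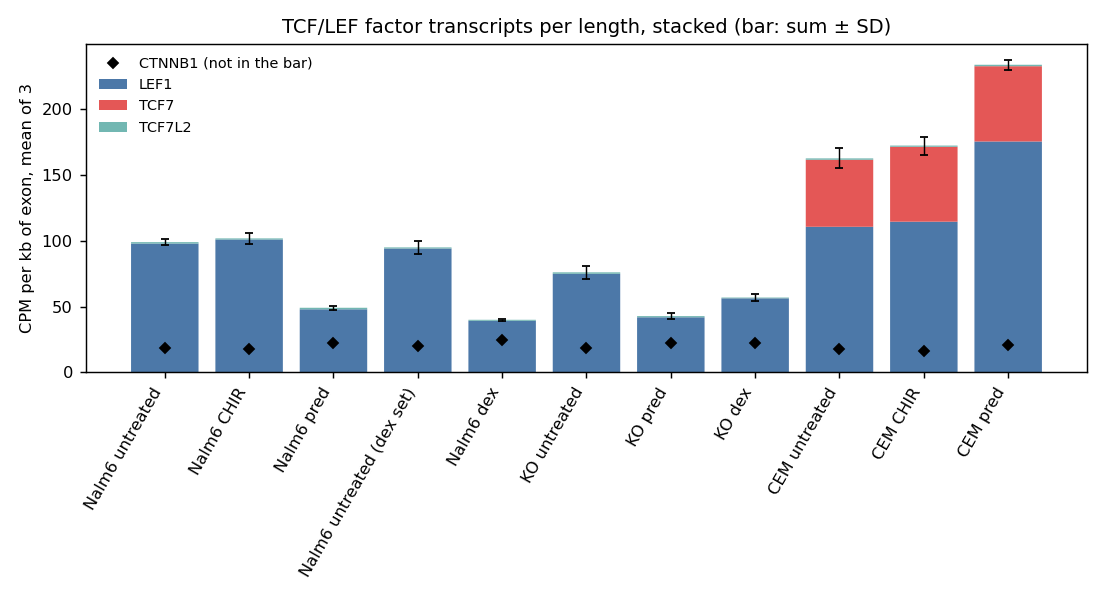
Stacked means of LEF1, TCF7 and TCF7L2 in CPM per kilobase of exon (y axis, linear from 0) for the 11 groups (x axis), with the SD of the sum over 3 libraries as error bar and CTNNB1 on the same scale as a black diamond. The sum falls to 39.9 in Nalm6 under dexamethasone and reaches 234 in CEM under prednisolone, and the TCF7 segment is visible in CEM alone.

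LEF1 responded to glucocorticoids in opposite directions in the B-lineage and the T-lineage line. Under prednisolone Nalm6 libraries had 260, 263 and 248 CPM, against 509 to 534 CPM untreated. LEF1 was 2.08-fold lower (log2 -1.06 ± 0.04, edgeR adjusted p = 1.42e-13). CEM libraries under prednisolone had 928, 936 and 956 CPM, against 582 to 612 CPM untreated. There LEF1 was 1.55-fold higher (log2 0.64 ± 0.03, edgeR adjusted p = 4.3e-12). Treated and untreated libraries did not overlap in either line. The difference between both responses, tested as an interaction, was 1.71 ± 0.05 on the log2 scale (edgeR adjusted p = 3.21e-18), rank 12 by p among 20491 genes. The prednisolone dose was 10 µM in CEM and 5 µM in Nalm6. Library make-up differed too, with 19.3% to 21.4% of reads outside genes in these CEM libraries and 26.3% to 32.7% in these Nalm6 libraries. Line, dose, library make-up and any difference in medium cannot be told apart. The interaction used the first untreated Nalm6 group. LEF1 in the second differed from it by 0.00 ± 0.04 (log2, edgeR adjusted p = 0.935).

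Dexamethasone lowered LEF1 in Nalm6 as well. Treated libraries stood at 212, 210 and 206 CPM, below the 473 to 525 CPM of their untreated set. The fall was 2.46-fold (log2 -1.30 ± 0.04, edgeR adjusted p = 3.26e-12). Of the genes tested for dexamethasone, 98.4% had a higher log2 fold change than LEF1. No dexamethasone libraries of CEM were analysed here.

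CTNNB1 rose under prednisolone in Nalm6 and CEM and under dexamethasone in Nalm6. Prednisolone libraries of Nalm6 had 264, 268 and 268 CPM and untreated ones 226, 213 and 216 CPM, a log2 change of 0.26 ± 0.04 (edgeR adjusted p = 1.17e-05). The size of this rise depends on the untreated group. CTNNB1 in the second untreated Nalm6 set was above the first by 0.20 ± 0.04 (log2, edgeR adjusted p = 0.0018), and prednisolone was not tested against that set. Dexamethasone gave 296, 298 and 296 CPM against 249, 236 and 232 CPM, a log2 change of 0.28 ± 0.04 (edgeR adjusted p = 4.35e-05). In CEM, prednisolone gave 245, 240 and 246 CPM against 215, 202 and 211 CPM, a log2 change of 0.19 ± 0.03 (edgeR adjusted p = 6.73e-05). The groups did not overlap in any of these comparisons. The CTNNB1 response to prednisolone differed between the lines by -0.06 ± 0.05 on the log2 scale, which was not called (edgeR adjusted p = 0.452).

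TCF7L2 did not pass the test under glucocorticoids in any line. Its log2 changes were 0.07 ± 0.09 for prednisolone in Nalm6 (edgeR adjusted p = 0.586), -0.11 ± 0.11 for dexamethasone (0.449) and 0.02 ± 0.10 for prednisolone in CEM (0.887). For prednisolone in Nalm6 only the first untreated group was used. TCF7L2 in the second differed from the first by -0.36 ± 0.11 (log2, edgeR adjusted p = 0.0166). TCF7 in CEM stood at 568, 569 and 590 CPM under prednisolone, all above the untreated libraries (477 to 564 CPM). The log2 change was small, 0.13 ± 0.04 (edgeR adjusted p = 0.0209), and was not called by DESeq2 (adjusted p = 0.191). It was lost too in the fit of all 33 libraries (0.367) and in the fits without CEM_Pred replicate 2 or 3 (0.064 and 0.0917) or CEM_Ctrl replicate 1 or 3 (0.146 and 0.0891).

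Glucocorticoids changed a large part of the transcriptome, so these calls are read against that. In Nalm6 under prednisolone, 2 of 3 tested members were called where 54.8% of all tested genes were. Under dexamethasone it was 2 of 4 against 60.5%, and in CEM under prednisolone 3 of 4 against 45.1%. For the interaction of line and prednisolone it was 1 of 4, LEF1, against 26.9%. The glucocorticoid counts in single lines are near the background. By size, 98.2% of all tested genes had a higher log2 fold change than LEF1 under prednisolone in Nalm6, and 7.12% had a higher one in CEM.

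**Figure D3:**
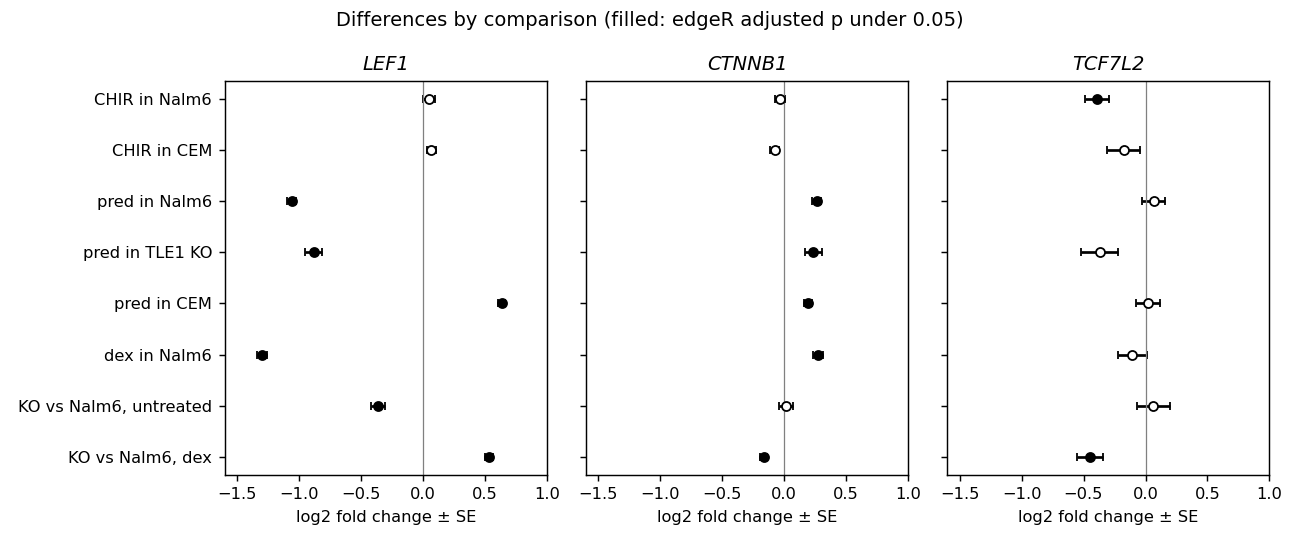
Log2 fold changes with standard errors (x axis) of LEF1, CTNNB1 and TCF7L2 in 8 comparisons (y axis); filled points have an edgeR adjusted p under 0.05. LEF1 lies at -1.06 for prednisolone in Nalm6 and at 0.64 in CEM, whereas all 3 prednisolone values of CTNNB1 lie between 0.19 and 0.26.

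The other pathway genes gave a mixed picture. Their counts are to be read against the shares of all tested genes called: 54.8% for prednisolone in Nalm6, 60.5% for dexamethasone and 45.1% for prednisolone in CEM. Of 15 genes of the destruction complex and beta-catenin turnover, prednisolone in Nalm6 raised 6 and lowered 3 (median log2 change 0.08, all tested genes 0.03). GSK3B, the kinase that phosphorylates beta-catenin, rose by 0.76 ± 0.04 on the log2 scale, and the APC-binding scaffold AMER1 fell by 0.54. Dexamethasone raised 8 and lowered 4 (median 0.17, all genes 0.02), with GSK3B at 1.28 ± 0.04 and AXIN2 at 0.63 ± 0.12. In CEM prednisolone raised 2 and lowered 3 (median 0.02, all genes 0.02). The 3 that fell were AMER1 (-0.66 ± 0.05, edgeR adjusted p = 1.67e-08) and the Wnt signal relays DVL2 (-0.33 ± 0.04) and DVL1 (-0.24 ± 0.04). GSK3B was at 0.14 ± 0.04 there, and its response differed between the lines by -0.61 ± 0.06 (edgeR adjusted p = 2.32e-08).

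Among 17 tested nuclear partners of the factors, prednisolone in Nalm6 raised 7 and lowered 7 (median -0.07). Of all tested genes 54.8% were called in Nalm6 and 45.1% in CEM. TLE1, the co-repressor, led the rises at 1.80 ± 0.05, and HDAC2, a deacetylase of co-repressor complexes, fell by 0.48. In CEM 8 of 20 partners rose and 4 fell (median 0.06), led by TLE2 at 0.63 ± 0.09 and TNIK, a kinase that activates TCF/LEF targets, at 0.60 ± 0.10. TLE1 itself was at 0.07 ± 0.03 in CEM (edgeR adjusted p = 0.104).

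Of 9 tested genes of a Wnt target list that includes LEF1 and TCF7 themselves, prednisolone in Nalm6 raised 3 and lowered 5 (median -0.18). The shares of all tested genes called were again 54.8% in Nalm6 and 45.1% in CEM. JUN rose by 1.27 and MYC fell by 1.00. In CEM 3 of 10 rose and 1 fell (median 0.10): JUN at 1.36, LEF1 and TCF7 rose and MYC fell by 0.81. MYC thus fell in both lines while LEF1 moved in opposite directions. Of 4 tested junction partners in Nalm6, CTNNA1 (alpha-catenin) rose by 0.25, and JUP, the beta-catenin paralog plakoglobin, fell by 0.37 together with VCL (vinculin) by 0.20 (list median -0.13). Of 5 tested in CEM, VCL rose by 0.67 and CDH2 (N-cadherin) fell by 0.10 (list median 0.06).

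Under CHIR-99021 only TCF7L2 in Nalm6 passed the test. LEF1 stood at 562, 545 and 517 CPM in treated Nalm6 and at 614, 623 and 603 CPM in treated CEM, ranges that overlap their untreated groups. Its log2 changes were 0.05 ± 0.05 (edgeR adjusted p = 0.615) and 0.07 ± 0.03 (0.243). CTNNB1 changed by -0.03 ± 0.04 (0.687) and -0.08 ± 0.04 (0.226). Degradation of beta-catenin is regulated on the protein, which was not measured.

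TCF7 in CEM gave 629, 573 and 519 CPM under CHIR-99021 against 477 to 564 CPM untreated. The groups overlap, and the log2 change was 0.18 ± 0.07 (edgeR adjusted p = 0.137). With every gene kept it passed (0.19, adjusted p = 7.97e-05), as it did without CEM_CHIR replicate 3 (0.25, adjusted p = 0.024) or CEM_Ctrl replicate 2 (0.26, adjusted p = 0.0401). TCF7L2 in Nalm6 fell from 7.93, 7.14 and 7.21 CPM to 6.57, 5.53 and 5.03 CPM (log2 -0.39 ± 0.10, edgeR adjusted p = 0.0385). The groups did not overlap, but the call was lost in 6 of 13 alternatives: the fit of all 33 libraries (adjusted p = 0.0544), the unstranded counts (0.0715) and the fits without Nalm6_Ctrl replicate 1, 2 or 3 (0.134, 0.106 and 0.116) or Nalm6_CHIR replicate 2 (0.0804). In CEM TCF7L2 was at -0.18 ± 0.13 (adjusted p = 0.456).

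With edgeR 1 of 3 tested members was called for CHIR-99021 in Nalm6, where 7.88% of all tested genes were. In CEM 0 of 4 were called against 10.8% of genes, with 1 member at an unadjusted p under 0.05 and 0 by DESeq2. The difference between the lines' CHIR-99021 responses gave 0 of 4 with edgeR against 1.17% of genes, with 0 members at an unadjusted p under 0.05 and 0 by DESeq2. In both lines 0 of 15 destruction complex genes were called. AXIN2, a feedback inhibitor and standard target of the pathway, was at -0.19 ± 0.09 in Nalm6 (edgeR adjusted p = 0.221) and at 0.56 ± 0.18 in CEM (0.0644). Of 9 tested Wnt targets, MYC fell by 0.23 in Nalm6 and by 0.55 in CEM, where JUN rose by 0.46. Of the nuclear partners, NLK, a kinase that acts on TCF/LEF proteins, rose by 0.34 in Nalm6 and TLE2 fell by 0.52. TLE4 fell in both lines, by 0.17 in Nalm6 and 0.25 in CEM. The CHIR-99021 dose was 0.5 µM in Nalm6 and 2 µM in CEM, so line, dose, library make-up and any difference in medium cannot be told apart.

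The knockout carried less LEF1 before treatment. Its libraries stood at 413, 418 and 372 CPM, below the 509 to 534 CPM of untreated Nalm6. LEF1 was 1.28-fold lower (log2 -0.36 ± 0.06, edgeR adjusted p = 0.00135), the 1 member called of 3 tested, against 27.1% of all tested genes. CTNNB1 was at 206, 212 and 230 CPM, overlapping Nalm6 (log2 0.01 ± 0.06, adjusted p = 0.905). TCF7L2 overlapped too (log2 0.06 ± 0.14, adjusted p = 0.772). Of 17 nuclear partners, 4 were higher in the knockout and 3 lower, with TLE2 at 1.26 ± 0.10 and the co-repressor CTBP2 at -0.996 (SE 0.05). Of 15 destruction complex genes, 2 were higher and 1 lower.

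Prednisolone lowered LEF1 in the knockout as well, to 210, 232 and 231 CPM. The fall was 1.84-fold (log2 -0.88 ± 0.07, edgeR adjusted p = 4.01e-06). It differed from the parental response by 0.20 ± 0.08, which was not called (edgeR adjusted p = 0.171), although a fit of all 33 libraries called it (0.21, adjusted p = 0.0311). CTNNB1 rose to 270, 253 and 261 CPM (log2 0.23 ± 0.07, edgeR adjusted p = 0.0204), and 4 of 6 fits that left out 1 library lost this call: without TLE1_KO_Pred replicate 1 or 3 the adjusted p was 0.0726 and 0.0631, and without TLE1_KO_Ctrl replicate 1 or 2 it was 0.0739 and 0.0732. TCF7L2 stood at 5.47, 6.53 and 6.26 CPM, overlapping the untreated 7.54, 9.27 and 6.07 CPM (log2 -0.37 ± 0.15, adjusted p = 0.0726). It was called without a filter (-0.36, adjusted p = 0.0294) and in the fit of all 33 libraries (-0.36, adjusted p = 0.0382). Without TLE1_KO_Ctrl replicate 3 it was also called, at -0.51 (adjusted p = 0.0122), and so was its difference from the parental response (-0.55, adjusted p = 0.0398, against -0.41 and 0.266 with all libraries). The calls were 2 of 3 members against 41.7% of all tested genes. For the difference of responses edgeR called 0 of 3 members against 3.48% of genes, with 2 members at an unadjusted p under 0.05 and 0 by DESeq2. TLE1 RNA rose less in the knockout than in Nalm6, by -0.46 ± 0.10 (edgeR adjusted p = 0.0136).

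Under dexamethasone the order of knockout and Nalm6 was turned around. LEF1 stood at 319, 291 and 295 CPM in the knockout and at 206 to 212 CPM in Nalm6. The knockout was 1.45-fold higher (log2 0.54 ± 0.03, edgeR adjusted p = 1.31e-11). CTNNB1 was lower, at 262, 266 and 260 CPM against 296 to 298 CPM (log2 -0.17 ± 0.03, edgeR adjusted p = 4.12e-05). TCF7L2 was lower as well, at 4.27, 3.91 and 3.41 CPM against 5.16 to 5.49 CPM (log2 -0.45 ± 0.11, edgeR adjusted p = 0.00104). None of these ranges overlapped, and 3 of 4 tested members were called against 56.6% of all tested genes. The groups also differed in library make-up. Multiply mapped reads were 6.97%, 7.28% and 7.55% in the knockout and 5.49%, 5.62% and 5.72% in Nalm6. Unmapped reads were 2.84%, 4.54% and 3.28% against 11.2%, 7.69% and 5.50%. The part of this in the differences was not tested.

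A further contrast, chosen once the data had been seen, set this difference against the untreated one. In it LEF1 moved by 0.89 ± 0.06 on the log2 scale (edgeR adjusted p = 3.39e-08). TCF7L2 gave -0.52 ± 0.18 (adjusted p = 0.0365) and CTNNB1 -0.18 ± 0.07 (0.0472). These 3 of 4 calls stand against 30.3% of all tested genes, and the calls of TCF7L2 and CTNNB1 were lost in 9 and 15 of 19 alternatives. The contrast joins libraries of different sets. Between both untreated Nalm6 groups the LEF1 difference was 0.00 ± 0.04 (log2, adjusted p = 0.935). They differed in CTNNB1 (0.20 ± 0.04, adjusted p = 0.0018) and TCF7L2 (-0.36 ± 0.11, adjusted p = 0.0166), though the TCF7L2 call was lost without Nalm6_Dex_Ctrl replicate 1 (0.0588) or Nalm6_Ctrl replicate 1 (0.066). Thus 2 of 3 tested members were called between groups that carry the same description, as were 50.2% of all tested genes. TLE1 RNA was at 57.5, 55.3 and 59.0 CPM in the knockout under dexamethasone and at 134, 131 and 129 CPM in Nalm6.

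The choice of untreated Nalm6 group decided the CTNNB1 difference between the lines. CEM was lower than the second set (215, 202 and 211 against 249, 236 and 232 CPM, log2 -0.23 ± 0.04, edgeR adjusted p = 0.000325). Against the first set (226, 213 and 216 CPM) the difference was -0.01 (adjusted p = 0.771). TCF7L2 in CEM stood 0.31 ± 0.13 above the second set on the log2 scale, which was not called (edgeR adjusted p = 0.0511), and at -0.02 ± 0.09 against the first set (adjusted p = 0.836). The comparison with the second set was called without a filter (0.00644), with the replicate number as a block (0.0165), in the fit of all 33 libraries (0.0398) and without CEM_Ctrl replicate 1 or 3 (0.034 and 0.0462) or Nalm6_Dex_Ctrl replicate 2 or 3 (0.0347 and 0.0403). In this comparison 3 of 4 tested members were called against 77.5% of all tested genes.

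Strand decided what could be said of TCF7 in Nalm6. The 3' end of TCF7 overlaps SKP1 on the other strand over 2931 bases in GENCODE v29. On the opposite strand of TCF7, untreated Nalm6 libraries had 562, 411 and 419 reads, against 1, 2 and 2 on the sense strand. Over all 24 Nalm6 and knockout libraries the sense counts ran from 0 to 27 and the opposite-strand counts from 58 to 562. Counts without strand therefore gave TCF7 as 517, 379 and 381 in untreated Nalm6. Mean opposite-strand TCF7 was 8.25 CPM in untreated Nalm6 and 3.36 CPM in the second untreated set, where SKP1 stood at 95.9 and 83.0 CPM. In untreated CEM it was 5.00 CPM, with SKP1 at 128 CPM. Counts without strand leave out, as ambiguous, reads that overlap annotated exons of both genes. The 517, 379 and 381 reads above are thus reads outside annotated SKP1 exons. The source of the opposite-strand reads was not tested. Between knockout and Nalm6 under dexamethasone, TCF7 was at 0.20 ± 0.35 on the sense strand (edgeR adjusted p = 0.662) and at -0.48 ± 0.15 without strand (adjusted p = 0.00789).

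**Figure D4:**
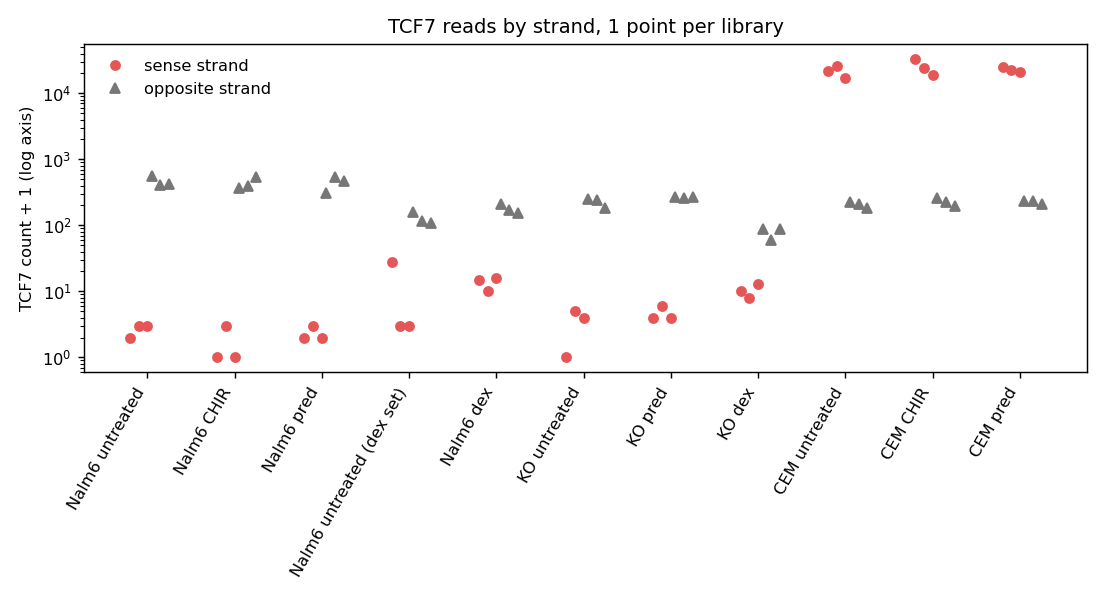
TCF7 counts plus 1 (y axis, log scale) on the sense strand (red circles) and on the opposite strand (grey triangles) in each library of the 11 groups (x axis). In Nalm6 and knockout libraries the opposite-strand counts of 58 to 562 lie above every sense count, while CEM libraries have 16856 to 33125 sense counts.

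The few sense reads of TCF7 were not evenly spread over the Nalm6 libraries. In the untreated, CHIR-99021 and prednisolone libraries of Nalm6 and the knockout the 15 counts ran from 0 to 5. In Nalm6 under dexamethasone they were 14, 9 and 15, and in the knockout under dexamethasone 9, 7 and 12, or 0.22 to 0.41 CPM. Replicate 1 of the untreated dexamethasone set (Nalm6_Dex_Ctrl) stood alone with 27, where the other two had 2 each. That library also held 8 CD3E, 10 CD3G, 4 CD3D, 6 CD5, 3 CD2 and 2 CD7 counts. These T-cell genes were at 0 in the other Nalm6 and knockout libraries except for 1 CD3G count in a CHIR-99021 library and 1 CD2 count in a dexamethasone library. Set against untreated CEM, its TCF7 level was 0.116% and the levels of the 6 T-cell genes were 0.0236% to 0.169%, and their part in the result was not tested. With all libraries TCF7 changed by 0.12 ± 0.61 under dexamethasone in Nalm6 (edgeR adjusted p = 0.884), and without that library by 2.24 ± 0.62 (adjusted p = 0.00312). TCF7L2 in the same comparison went from -0.11 to -0.27 (adjusted p = 0.0202) without it.

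The 300-base windows around annotated starts in RefSeq (GRCh38.p14) held 2 for TCF7, 3 for TCF7L2 and 1 each for LEF1, TCF7L1 and CTNNB1. They were searched on both strands for CTTTGAT, a core TCF/LEF site, and for its close variants CTTTGAA as well as CTTTGTT, and in addition for CTTTGTA. The glucocorticoid receptor palindrome ACANNNTGT was searched likewise, and its half-site AGAACA. Over all 35116 windows 13.8% held a TCF/LEF match, 5.37% the palindrome and 14.8% a half-site. The downstream TCF7 start, which lies in an intron in GENCODE v29, is shown because its window holds a match to the letters of the factors themselves. AACAAAG, the reverse complement of CTTTGTT, begins 50 bases before the start and a half-site 78 bases before it, both in capitals in the 250 bases before the start, on the plus strand at chr5:134123368-134123617.
TCF7 downstream start: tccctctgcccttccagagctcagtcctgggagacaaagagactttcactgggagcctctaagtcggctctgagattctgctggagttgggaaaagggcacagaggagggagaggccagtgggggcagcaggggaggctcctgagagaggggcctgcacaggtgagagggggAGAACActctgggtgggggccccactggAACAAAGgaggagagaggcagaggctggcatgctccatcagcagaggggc
The single LEF1 window has its start 2655 bases downstream of the first v29 start, and its 250 bases before the start all lie in v29 exons of LEF1. It is shown because LEF1 responds to glucocorticoids, and its only match is a half-site that begins 10 bases before the start, in capitals in 30 bases of the minus strand at chr4:108166302-108166331.
LEF1: ggttttaaacagcgcgtttaAGAACAcctc
One TCF7L2 window held CTTTGTT with an overlapping half-site, and another held the palindrome. The other windows held none of these letters. Such matches are frequent and describe the letters only.

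LEF1-AS1, a non-coding gene on the other strand that overlaps LEF1 over 1432 bases at its 5' end, was looked at after its values were seen. It rose under glucocorticoids in both lines, including where LEF1 fell. In Nalm6 it went from 15.8, 16.5 and 15.9 CPM to 24.1, 27.1 and 23.9 CPM under prednisolone (log2 0.61 ± 0.05, edgeR adjusted p = 3.35e-08). In the second set it was at 14.4, 13.6 and 14.1 CPM untreated and 20.9, 20.4 and 20.2 CPM under dexamethasone (log2 0.51 ± 0.06, adjusted p = 2.83e-06). In CEM it went from 24.9, 21.8 and 21.7 CPM to 41.6, 41.9 and 42.4 CPM under prednisolone (log2 0.85 ± 0.05, adjusted p = 2.33e-10). Because the sense strand was counted, reads of LEF1 and LEF1-AS1 were kept apart as far as the library's strand marking allows.

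**Figure D5:**
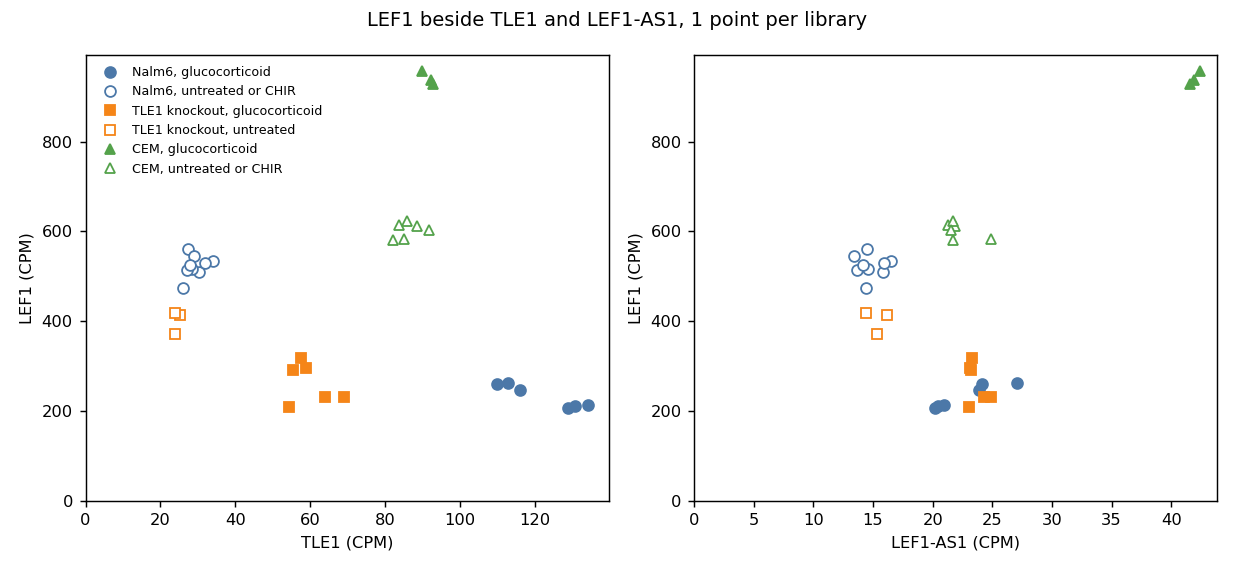
LEF1 (y axis, CPM, linear from 0) against TLE1 (left) and LEF1-AS1 (right; x axes, CPM) in each library, by line (blue circles Nalm6, orange squares knockout, green triangles CEM), with filled symbols for glucocorticoid treatment. In Nalm6 treated libraries have TLE1 at 110 to 134 CPM and LEF1 at 206 to 263 CPM, while in CEM LEF1 rises to 928 CPM or more with TLE1 at 89.9 to 92.7 CPM.

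The genes whose levels ran most like each member were found among 14136 genes by Pearson's r over the 11 group means of log2(CPM + 0.5). The groups share cell lines and sets of libraries, so r is a description. For LEF1 they were TTLL1, ANP32A and VIM (r = 0.97 each). VIM, the intermediate filament vimentin, went from 982 to 764 CPM with prednisolone in Nalm6 and from 1081 to 1205 CPM in CEM. For TCF7 they were TENM1, NECTIN1 and OCIAD2 (r = 1.00 each), which like TCF7 separate CEM from the other groups. These 3 genes also had low levels in the knockout under dexamethasone, of 0.303, 0.111 and 0.272 CPM. For CTNNB1 they were STK11IP, ZSWIM8 and CAPN1-AS1 (r = 0.98 each). For TCF7L2 they were MIR3143 (0.92), DUS4L-BCAP29 (0.90) and C2CD3 (0.90). Among the members themselves r was -0.72 between LEF1 and CTNNB1 and 0.67 between LEF1 and TCF7.

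Ordered by group mean, LEF1 descended from CEM under prednisolone through CEM under CHIR-99021, untreated CEM, Nalm6 under CHIR-99021, both untreated Nalm6 groups, the untreated knockout, the knockout under dexamethasone, Nalm6 under prednisolone, the knockout under prednisolone and Nalm6 under dexamethasone. Ranges of neighbours overlapped at 4 of the 10 steps. For CTNNB1 they overlapped at 6, for TCF7L2 and TCF7 at 9 and for TCF7L1 at all 10. The step without overlap for TCF7 lies between CEM and the rest.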

How the data were processed

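The 5 genes and all gene lists were chosen with earlier results of these data known. Raw counts of reads were deposited for each gene in STAR's layout, with 62446 gene rows and 4 rows for reads assigned to no gene (unmapped 2.84% to 11.2%, multiply mapped 4.83% to 7.55%, outside genes 18.4% to 32.7%, ambiguous 4.70% to 7.45%), which stayed out of totals and tests. Bowtie2, DESeq2 and hg19 are named, without a role, per the submitters' processing notes, and the aligner and annotation versions are not given in the sources used here. The column on which gene totals were 12.3 to 15.3 times those of the opposite strand was taken as the sense strand. STAR counts uniquely mapped reads only. Gene positions and lengths come from GENCODE v29 (GRCh38), not the files' build.

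A comparison used the libraries of its groups alone, in edgeR 4.0.16 (R 4.3.3; filterByExpr, TMM, quasi-likelihood test on counts, Benjamini-Hochberg adjustment over all tested genes, called under 0.05), after a check on simulated counts. Standard errors came from the F statistic. CPM values are mean ± SD over 3 libraries and use no TMM factor. TCF7 count ratios carry exact 95% intervals for counting error only. Besides the 5 genes and TLE1, up to 3 called genes per list and comparison were named by the largest absolute log2 fold change; AXIN2, GSK3B and LEF1-AS1 were also named outside that rule, after their values were seen. Alternatives were DESeq2 1.42.0, RLE size factors, a filter of at least 10 counts per library or none, a replicate block, unstranded counts, 1 fit of all 33 libraries, leaving out each library, the other untreated Nalm6 group, TMM-scaled levels and the longest transcript as length.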

Additional observations from a re-analysis of the deposited data

Results flagged for a closer look

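The response of LEF1 to prednisolone differed between CEM and Nalm6 by 1.71 on the log2 scale (edgeR interaction test, adjusted p = 3.21e-18), with all 3 treated CEM libraries above and all 3 treated Nalm6 libraries below their untreated groups. The doses differed, 10 µM in CEM and 5 µM in Nalm6, so line, dose, library make-up and any difference in medium cannot be told apart. The knockout-minus-Nalm6 difference under dexamethasone departed from the untreated one by 0.89 for LEF1 (adjusted p = 3.39e-08), by -0.52 for TCF7L2 (0.0365) and by -0.18 for CTNNB1 (0.0472). That contrast was chosen after seeing the data and joins libraries of different sets. In it 30.3% of all tested genes were called, and the calls of TCF7L2 and CTNNB1 were lost in 9 and 15 of 19 alternatives.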

How the results depend on the processing

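Of 737 alternative values for 50 results, 675 kept the call or its absence, 44 lost a call, 17 gained one and 1 changed sign. In 35 results all alternatives were of the first kind. A change of sign was counted only where the main or the alternative value was called. Uncalled values could change sign without being counted, as TCF7L2 did for prednisolone in Nalm6 (log2 -0.06 to 0.12 over 13 alternatives). The counted sign change was TCF7 between knockout and Nalm6 under dexamethasone, -0.48 (edgeR adjusted p = 0.00789) with unstranded counts, which add reads of the opposite strand. The number of members called for CHIR-99021 in Nalm6 fell to 0 with unstranded counts and in the fit of all 33 libraries, and for CHIR-99021 in CEM it was 1 (TCF7) without a filter. For the difference of prednisolone responses between knockout and Nalm6 it was 1 in the fit of all libraries, and for the added dexamethasone contrast 1. The causes were not tested.

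Leaving out 1 library gave 0 to 1 called members for CHIR-99021 in Nalm6, 2 to 4 for dexamethasone in Nalm6, 1 to 3 for prednisolone in the knockout, 2 to 3 for prednisolone in CEM, 3 to 4 between untreated CEM and Nalm6, 0 to 1 for the difference of prednisolone responses between knockout and Nalm6, 0 to 1 for CHIR-99021 in CEM, 1 to 2 between both untreated Nalm6 groups and 1 to 3 for the added contrast. In the added contrast TCF7L2 lost its call in the fit of all libraries and in 8 fits without 1 library (adjusted p up to 0.12), and CTNNB1 lost its call in 5 other settings and in 10 such fits (up to 0.12). LEF1 shares per kilobase moved to 63.6% in untreated CEM and 71.2% under prednisolone with the longest transcript.

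In no comparison did all 3 same-numbered pairs deviate together with a correlation over 0.1 (-0.304 to 0.255 in all), so the numbers were not taken as pairs. They correlated best with their own number in all 3 pairs for prednisolone in Nalm6 and between both untreated Nalm6 groups, a hint from the data and not from the design. With the replicate number as a block, prednisolone in the knockout called 1 member, CTNNB1 dropping out (adjusted p = 0.0613).

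At this depth TCF7L1 lies near the 3-count limit, as does TCF7 in Nalm6 and the knockout outside the dexamethasone set (0 to 5 counts); within that set TCF7 rests on 2 to 27 counts. TCF7L2 rests on 99 to 491 counts per library.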
